A study of Sesuvium portulacastrum with 18 samples.

Results

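In shoots of the halophyte Sesuvium portulacastrum, 112 of 89295 listed transcripts kept similar mean levels at 0 h and 8 h and stood at no more than 1/2 of both at 24 h. They are called late-falling transcripts here. They were chosen on the deposited normalized CPM (CPM, read counts relative to library size, after scaling between libraries) by 4 conditions. The 0 h and 8 h means were each at least 5, the 24 h mean was at most 1/2 of both, the 8 h mean lay between 2/3 and 1.5 times the 0 h mean, and each 24 h value lay below all 0 h and 8 h values. All 3 contrasts between times therefore entered the choice. The fall and its size are a description, and no test of them is offered as evidence.

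The plants were grown from stem cuttings in hydroponic culture. At 15 days the 0 h set received fresh control medium and was harvested at once, while the 8 h and 24 h sets were moved to medium with 250 mM NaCl and harvested 8 h and 24 h later. Each time had 3 shoot libraries described as biological replicates, and the series also holds root libraries of the same design. No plants without NaCl were given for 8 h and 24 h, so time in salt, time since the change of medium and hour of harvest cannot be told apart. The sources used here do not give the genetic make-up of the cuttings, which were collected near 1 creek.

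A halophyte is a plant that completes its life on saline ground. NaCl in the medium first lowers the water potential around the root, and sodium and chloride then build up in the shoot, where salt-tolerant plants store much of them in vacuoles. Some transcript responses to salt are early and transient and others appear only after many hours. Sesuvium portulacastrum is a creeping coastal succulent used to study such tolerance. The files pair no transcript ID with a gene name, function or sequence, so none of the late-falling transcripts is given a role here, and the tissue could not be checked against marker genes. Because root and shoot IDs form separate sets, 0 of the 112 IDs occurred among the 97620 root IDs, and no root level can be given for them.

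The late-falling transcripts made up a small share of shoot RNA. Their summed level was 2552, 2604 and 2989 normalized CPM in the 0 h libraries, 2728, 2794 and 2930 in the 8 h libraries, and 804, 917 and 1041 in the 24 h libraries. The 24 h libraries were all low, as the rule requires, and on this scaled measure the 0 h and 8 h libraries overlapped. The sum was 2715 ± 238 at 0 h, 2817 ± 103 at 8 h and 921 ± 119 at 24 h (SD, n = 3 each), so the 24 h mean was 0.339 of the 0 h mean. As a share of all counts, with no scaling between libraries, they held 0.257 ± 0.00907% at 0 h, 0.313 ± 0.0108% at 8 h and 0.0871 ± 0.0102% at 24 h. By this share the 0 h and 8 h libraries did not overlap, with 0.251 to 0.268% at 0 h and 0.301 to 0.322% at 8 h. In bulk tissue, fewer cells that hold a transcript and less of it per cell cannot be told apart.

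**Figure D1:**
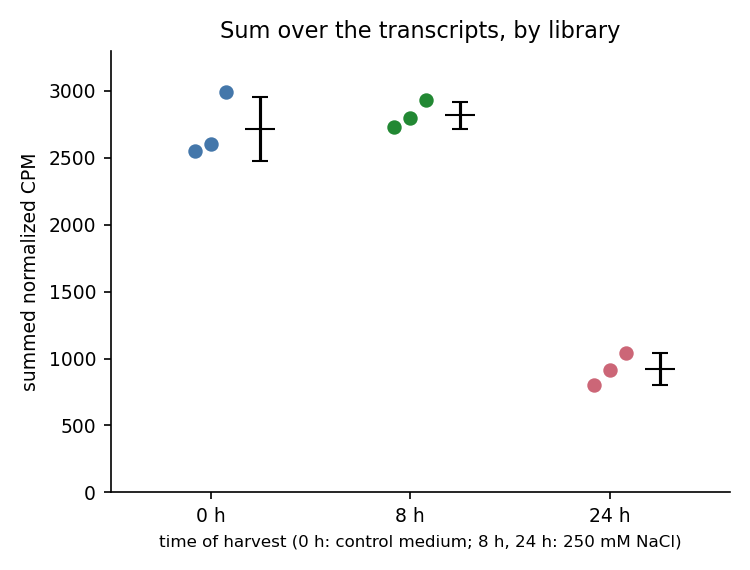
Summed normalized CPM of the 112 late-falling transcripts in each shoot library (points) by time of harvest, with the mean and SD of 3 libraries (black). The 24 h libraries lie between 804 and 1041, below the lowest 0 h library at 2552, as the rule requires.

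Most of the transcripts were of moderate abundance. Their 0 h means ran from 5.14 to 214 normalized CPM with a median of 13.7, their 8 h means from 5.12 to 195 with a median of 14.3, and their 24 h means from 0.280 to 39.4 with a median of 5.12. By 0 h mean, 44 lay under 10 normalized CPM, 27 between 10 and 20, 28 between 20 and 50, and 13 at 50 or more. Counts were ample for most of them, with 479 to 17274 counts per transcript over the 9 libraries. At 24 h, 11 of the 112 were under 1 normalized CPM in replicate 1, 8 in replicate 2 and 4 in replicate 3, while none was under 1 in any 0 h or 8 h library.

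The median 24 h mean was 37.7% of the 0 h mean and 35.1% of the 8 h mean. The quartiles lay at 29.3% and 43.5% of the 0 h mean, so many transcripts were near the limit of the rule. A 24 h mean at or below 1/3 of both earlier means was found for 34, and one at or below 1/4 of both for 16. The size of the fall and abundance did not go together in a simple way. Among the 44 transcripts under 10 normalized CPM the median 24 h mean was 37.8% of the 0 h mean and 12 lay at or below 1/4 of it. Among the 13 at 50 or more it was 30.8%, and 4 lay at or below 1/4. In the 2 classes between, 1 of 27 and 1 of 28 lay that low. Across the 112 transcripts, the rank correlation between 0 h mean and the ratio of 24 h to 0 h was 0.0185, a description over transcripts that share libraries and a ratio that contains the 0 h mean.

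**Figure D2:**
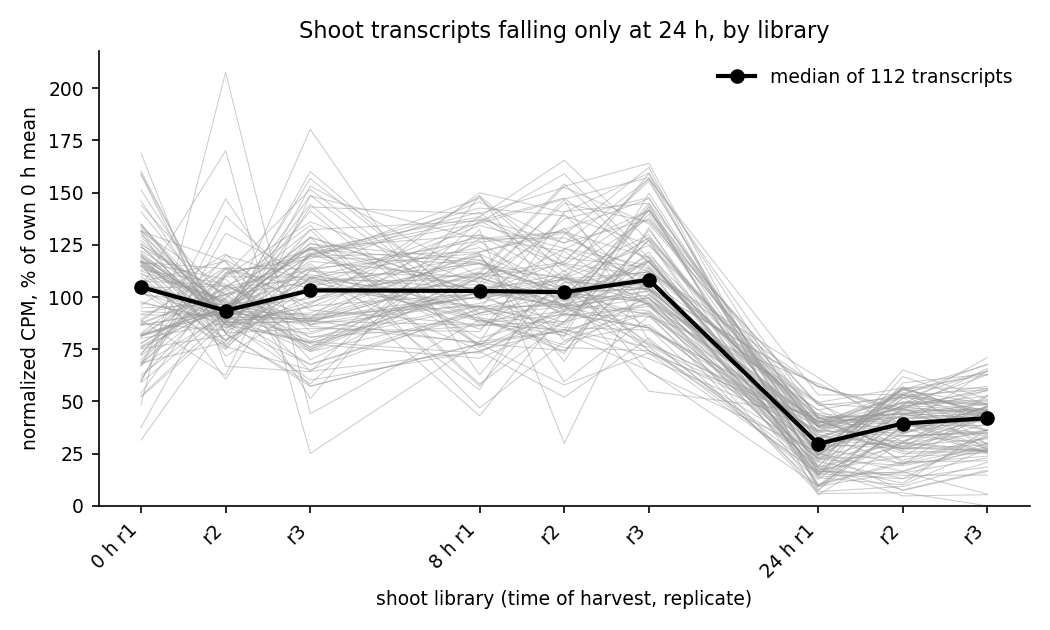
Normalized CPM of each late-falling transcript in every shoot library as a percentage of its own 0 h mean (grey lines, 112 transcripts), with the median in black. The lines spread widely among the 0 h and 8 h libraries and are low in all 3 libraries at 24 h, where the medians of replicates 1 to 3 are ordered as the summed levels of 804, 917 and 1041.

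The lowest 24 h level relative to 0 h was that of S_Transcript_112008.p1. It had 4.11, 9.60 and 7.04 normalized CPM at 0 h, 7.33, 6.64 and 6.36 at 8 h, and 0.406, 0.434 and 0 at 24 h. The 24 h values rest on 5, 5 and 0 counts, against 41 to 116 counts at 0 h and 88 to 102 at 8 h; the count of 0 allows up to 0.292 normalized CPM in that library (3 counts, counting error only). All 24 h libraries were near zero, and the lowest earlier library was 9.47 times the highest 24 h library, the widest gap among the 112. The 24 h mean was 4.05% of the 0 h mean, with a log2 fold change of -4.52 (SE 0.50, adjusted p = 0.000402 in edgeR's quasi-likelihood test) against 0 h and -4.46 (SE 0.49, adjusted p = 2.67e-05) against 8 h.

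S_Transcript_495201.p1 was second by fold change against 0 h. It had 14.5, 7.53 and 5.33 normalized CPM at 0 h, 12.1, 2.73 and 10.3 at 8 h, and 1.63, 0.434 and 0.486 at 24 h. The earlier libraries scattered widely, with 8 h replicate 2 far below the others at 8 h. By the rule, none of the earlier libraries reached down to the 24 h libraries. The log2 fold change was -3.35 (SE 0.65, edgeR adjusted p = 0.0103) against 0 h and -3.22 (SE 0.65, adjusted p = 0.00267) against 8 h. Its SE against 0 h was the largest among the 112.

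Against 8 h, S_Transcript_298997.p1 was second. It had 14.2, 5.63 and 5.41 normalized CPM at 0 h, 11.5, 9.66 and 8.10 at 8 h, and 0.569, 0.781 and 1.75 at 24 h. At 0 h replicate 1 stood well above the other two, and the 24 h libraries were low in all replicates. The log2 fold change was -3.24 (SE 0.46, edgeR adjusted p = 0.000218) against 8 h and -3.02 (SE 0.47, adjusted p = 0.00336) against 0 h.

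The most abundant late-falling transcripts fell by the rule, like all 112, and their values and tests are a description only. The one with the highest 0 h mean had 144, 196 and 303 normalized CPM at 0 h, 162, 202 and 220 at 8 h, and 35.4, 33.7 and 49.3 at 24 h. The 0 h and 8 h libraries overlapped, and all 24 h libraries were far below them (log2 fold change against 0 h -2.43, SE 0.24, edgeR adjusted p = 0.000192). The second highest had 90.6, 99.1 and 150 normalized CPM at 0 h, 154, 167 and 132 at 8 h, and 42.6, 28.3 and 29.5 at 24 h. Its 8 h mean was 1.33 times its 0 h mean, with overlapping libraries. The third had 111, 99.2 and 90.4 normalized CPM at 0 h, 114, 109 and 100 at 8 h, and 17.3, 23.6 and 25.5 at 24 h. This was the tightest profile of the 3, with a log2 fold change against 0 h of -2.17 (SE 0.14, edgeR adjusted p = 2.45e-05). The 5 most abundant held 22.7% of the summed level of all 112 at 0 h, 21.9% at 8 h and 15.8% at 24 h.

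**Figure D3:**
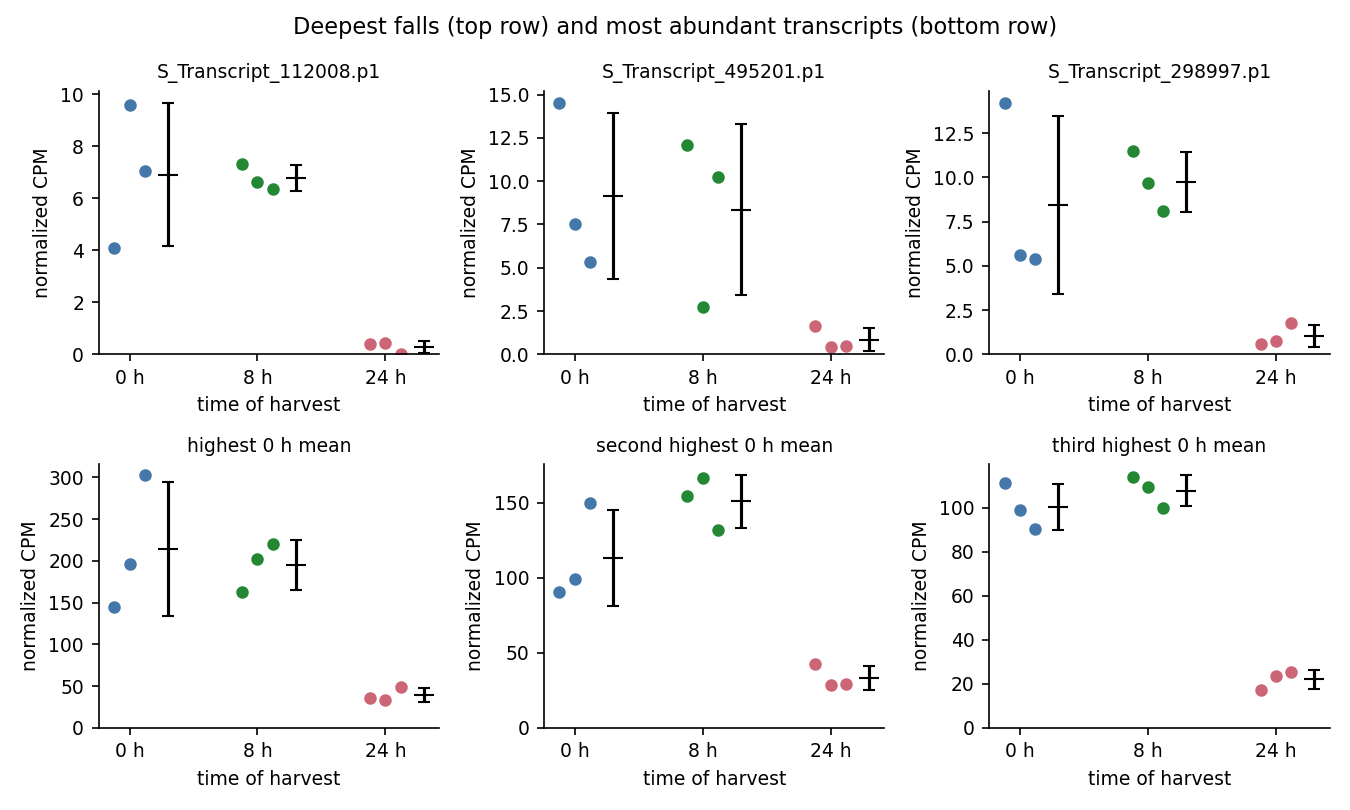
Normalized CPM by time of harvest for S_Transcript_112008.p1, S_Transcript_495201.p1 and S_Transcript_298997.p1 (top) and for the 3 late-falling transcripts of highest 0 h mean (bottom), as single libraries with mean and SD in black (n = 3 each). In every panel the 24 h libraries lie below all 6 earlier ones, as the rule requires.

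All 112 passed the filter on low counts and were fitted with the other shoot transcripts, 40220 in all, in edgeR's quasi-likelihood model. Of the 112, 99 were called lower at 24 h than at 0 h at an adjusted p under 0.05, beside 4.29% of all tested transcripts, and 109 were called lower at 24 h than at 8 h, beside 12.6%. Since the rule used both contrasts, these shares say nothing further about the transcripts. Both calls were met by 98, 11 were called only against 8 h, 1 only against 0 h and 2 in neither. The median log2 fold change was -1.40 against 0 h and -1.49 against 8 h, while over all tested transcripts it was 0.01 and -0.01. The rule's last condition, every 24 h library below all earlier ones, was met by 6.59% of tested transcripts.

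**Figure D4:**
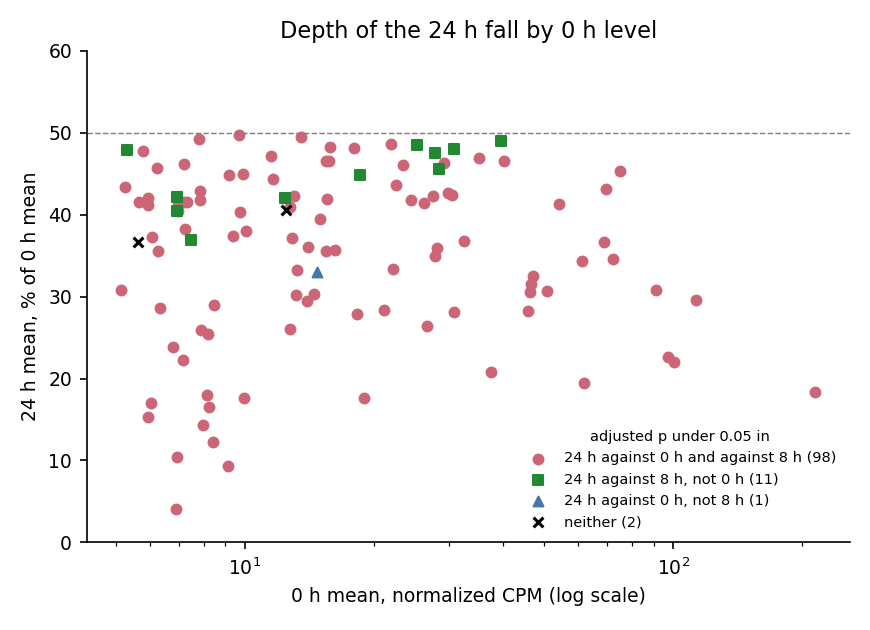
The 24 h mean as a percentage of the 0 h mean (vertical) against the 0 h mean on a log scale (horizontal) for the 112 late-falling transcripts, marked by the edgeR calls at adjusted p under 0.05. Low-level and high-level transcripts both reach large falls, and those called only against 8 h (11) lie between 36.9% and 49.0%, under the dashed limit of the rule at 1/2.

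The 13 transcripts that missed the call against 0 h varied more between replicates. The test sets the fall against this spread, so the difference follows in part from how the 13 were split off. Their log2 fold changes ran from -1.45 to -1.03 and their adjusted p from 0.0563 to 0.158. The median coefficient of variation among 24 h libraries was 48.4% in these 13 and 23.2% in the other 99, and among 0 h libraries 27.9% and 21.6%. In 11 of the 13, replicate 1 was at once the highest 0 h library and the lowest 24 h library. One of them, for example, had 37.9, 25.1 and 22.2 normalized CPM at 0 h, 27.2, 24.6 and 33.8 at 8 h, and 4.14, 16.7 and 17.98 at 24 h (log2 fold change against 0 h -1.13, SE 0.39, edgeR adjusted p = 0.112). Another owed its 0 h mean to replicate 2, with 6.01, 25.8 and 5.48 normalized CPM at 0 h, 11.1, 9.59 and 14.1 at 8 h, and 5.20, 5.46 and 4.47 at 24 h.

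Replicates differed in a patterned way over the whole set. At 24 h, replicate 1 was the lowest library for 58 of the 112 (51.8%), against 36.3% of all tested transcripts, and replicate 3 for 21 (18.8%), against 31.3%. At 0 h, replicate 1 was the highest for 49 (43.75%), against 35.6% of all tested transcripts, replicate 3 for another 49, against 39.5%, and replicate 2 for 14 (12.5%), against 24.8%. Replicate 1 was also the lowest 0 h library for 43 (38.4%), against 39.3% of all tested transcripts. Replicate 3 was the lowest for 40 (35.7%), against 28.6%, and replicate 2 for 29 (25.9%), against 32.1%. Of the 49 with replicate 1 highest at 0 h, 39 also had replicate 1 lowest at 24 h, while of the 49 with replicate 3 highest at 0 h, 14 had it. The combination of replicate 1 highest at 0 h and lowest at 24 h held for 34.8% of late-falling transcripts and 15.96% of all tested ones. The part of this spread in the choice of the 112 was not tested. Without 24 h replicate 1 the same rule found 109 transcripts, 85 of them among the 112, without 0 h replicate 1 it found 111, 85 of them among the 112, and without 24 h replicate 3 it found 170, 106 of them among the 112.

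At 8 h the late-falling transcripts lay around their 0 h level, within the window the rule allows. The 8 h mean was above the 0 h mean for 69 and below it for 43, the median was 106% of the 0 h mean, and 45 lay within 1.1 times of it either way. The 8 h and 0 h libraries overlapped for 101. For 9 every 8 h library was above all 0 h libraries, beside 20.1% of tested transcripts, and for 2 every one was below, beside 21% of tested transcripts.

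In edgeR's test of 8 h against 0 h, 3 of the 112 were called higher, beside 10.6% of all tested transcripts, and 0 were called lower, beside 15.1%. The rule kept only transcripts within its 8 h window, so few calls and few libraries lying apart follow from it. These shares therefore say nothing further about the transcripts. At an unadjusted p under 0.05 there were 7 higher and 1 lower, and DESeq2 called 1 higher and 0 lower. Shares of all tested transcripts are not given for either criterion. The 3 had 8 h means of 1.43 to 1.499 times the 0 h mean, at the upper edge of the window. The most abundant of them had 31.7, 23.3 and 23.5 normalized CPM at 0 h, 39.3, 36.8 and 41.7 at 8 h, and 8.53, 12.0 and 12.0 at 24 h. Every 8 h library was above every 0 h library and every 24 h library was below both (8 h against 0 h log2 fold change 0.57, edgeR adjusted p = 0.0160). When libraries were scaled by their totals alone, the median log2 fold change of all tested transcripts at 8 h against 0 h became 0.24. Under this scaling 19 of the 112 were called higher and 0 lower. The share of all tested transcripts called under it is not given here, so the 19 cannot be set against it. With totals alone the rule itself found 143 transcripts, of which 93 were among the 112.

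Transcripts of the opposite pattern were fewer. In all, 12490 shoot transcripts had 0 h and 8 h means of at least 5 normalized CPM within 1.5 times of each other, and the 112 were 0.897% of them. In the same 12490, 27 (0.216%) had a 24 h mean of at least 2 times both earlier means with every 24 h library above all others. The 2 counts are not mirror images, because both need earlier means of at least 5. A fall to under 5 is counted, while a rise from under 5 is left out. The 27 became 30 with library size alone and 29 with DESeq2's size factors, where the late-falling count was 143 and 109. The difference between these counts was not tested. The median log2 fold change of all 12490 was -0.04 at 24 h against 0 h, so the late-falling transcripts form the tail of a distribution centred near no change.

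**Figure D5:**
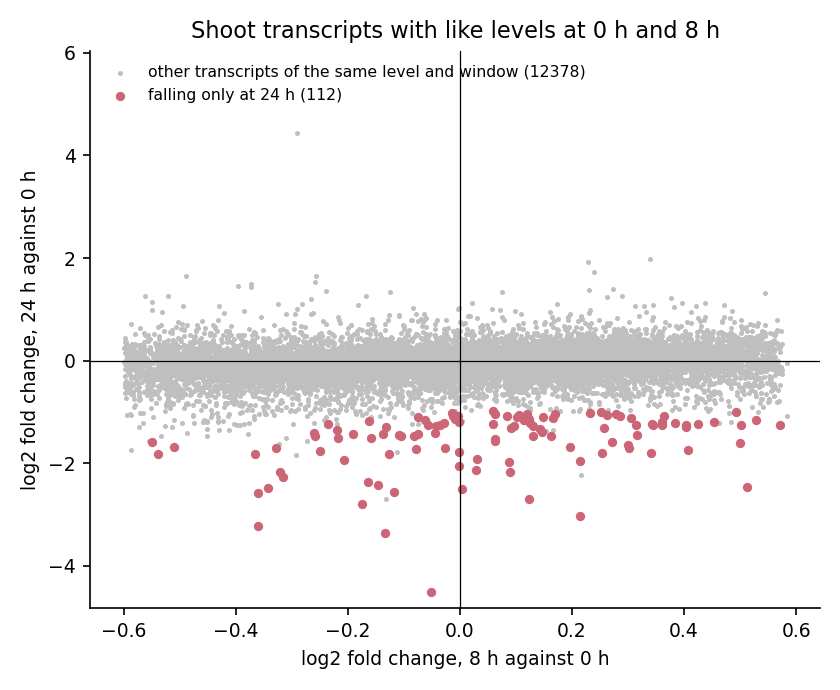
edgeR log2 fold changes at 24 h against 0 h (vertical) and at 8 h against 0 h (horizontal) for the 12490 shoot transcripts with 0 h and 8 h means of at least 5 normalized CPM within 1.5 times of each other. The 112 late-falling transcripts (red) lie at or below -0.99 on the vertical axis, across the whole 8 h window.

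The limits of the rule cut through a continuous range. Just inside the limit on the fall, a transcript averaged 9.68 normalized CPM at 0 h, 10.2 at 8 h and 4.81 at 24 h. Just outside it, another averaged 30.2, 28.1 and 14.1, which is 0.5004 of the lower earlier mean, and 1368 transcripts met every condition but this one. The lowest earlier mean inside was 5.12 and the highest outside 4.99, with 421 transcripts that met all conditions but the level. For the window at 8 h, the ratio of 8 h to 0 h was 1.499 just inside and 1.505 just outside at the upper end, and 0.688 and 0.652 at the lower end, with 41 and 25 transcripts outside. The condition on single libraries kept out 24 more, the nearest of which had its highest 24 h library at 11.86 and its lowest earlier library at 11.86 normalized CPM, equal to these digits.

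The IDs carry a transcript number and a suffix, p1, p2 and so on, whose meaning the files do not state. Of the 112, 107 (95.5%) had the suffix p1, 4 had p2 and 1 had p3, against 86.2% with p1 among all tested transcripts and 93.5% among the 12490 of like level and window. No 2 of the 112 shared a number. For 6 of them the count table listed 7 further IDs with the same number, of which 6 were tested. Near-identical sequences can share reads between IDs. Whether IDs with 1 number are alike in sequence is not stated, so their values may be uncertain. The sources used here do not say how reads were divided. Below, a form is an ID with a given suffix, and no kind of relation is implied.

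The 2 further IDs that share the number of the most abundant late-falling transcript had another time course. The p1 form had 132, 127 and 136 normalized CPM at 0 h, 53.8, 58.3 and 61.0 at 8 h, and 143, 176 and 165 at 24 h. It was low at 8 h in all libraries, and at 24 h, where the late-falling p2 form was at its lowest, it lay above all its 0 h libraries (log2 fold change against 0 h 0.30, SE 0.09, edgeR adjusted p = 0.0732). Between 8 h and 0 h the p1 form fell by 1.21 on the log2 scale (SE 0.09, edgeR adjusted p = 1.72e-06), and its 24 h against 8 h log2 fold change was 1.51 (SE 0.10, adjusted p = 2.08e-07). The p3 form had 9.31, 10.6 and 9.93 normalized CPM at 0 h, 4.39, 4.43 and 4.41 at 8 h, and 16.01, 13.6 and 15.5 at 24 h, with a 24 h against 0 h log2 fold change of 0.61 (SE 0.13, adjusted p = 0.0136). Both forms were thus high at 24 h relative to 8 h while the p2 form was low. The difference between the forms was not tested.

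Other IDs with a shared number gave a mixed picture. In 1 pair both forms were called lower at 24 h than at 0 h. The form outside the set had 6.51, 7.36 and 10.8 normalized CPM at 0 h, 5.39, 4.35 and 3.98 at 8 h, and 0.731, 1.21 and 0.486 at 24 h, and its 24 h against 0 h log2 fold change was -3.30 (SE 0.31, edgeR adjusted p = 0.000176). It missed the rule on 2 conditions, since its 8 h mean of 4.57 was under 5 and also under 2/3 of its 0 h mean of 8.23, and it had been called lower already at 8 h (adjusted p = 0.0238). In another pair the late-falling p2 form averaged 12.7 ± 2.52 normalized CPM at 0 h, 13.7 ± 2.14 at 8 h and 5.22 ± 0.141 at 24 h, while its p1 form averaged 27.6 ± 1.98, 28.1 ± 2.42 and 29.6 ± 2.14 (SD, n = 3 each), a 24 h against 0 h log2 fold change of 0.11 (SE 0.10, edgeR adjusted p = 0.586). In the 2 remaining pairs with a test, the form outside the set was not called at 24 h. One, of very low level, averaged 0.766 ± 0.573 normalized CPM at 0 h, 0.896 ± 0.0540 at 8 h and 0.296 ± 0.136 at 24 h (SD, n = 3 each), a 24 h against 0 h log2 fold change of -1.36 (SE 0.63, edgeR adjusted p = 0.233). The other averaged 12.3 ± 4.53, 10.6 ± 2.22 and 8.73 ± 2.98 at these times (SD, n = 3 each), with overlapping libraries and a log2 fold change of -0.48 (SE 0.29, edgeR adjusted p = 0.391).

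Some late-falling transcripts had neighbouring numbers. Among the 112 there were 4 pairs whose numbers differ by no more than 3. Both transcripts of a pair fall at 24 h by the rule, and no count of such pairs among all shoot transcripts is given here. In the most abundant pair, 1 transcript averaged 97.0 ± 51.1 normalized CPM at 0 h, 99.6 ± 12.6 at 8 h and 21.97 ± 3.46 at 24 h. The other averaged 62.0 ± 19.7, 55.8 ± 17.7 and 12.0 ± 4.72 at these times (SD, n = 3 each), so both stood near 0.2 of their 0 h mean at 24 h. In a second pair the means were 32.5 ± 4.82, 28.7 ± 2.05 and 12.0 ± 1.48 for 1 transcript and 46.4 ± 9.30, 57.6 ± 4.50 and 14.7 ± 4.34 for the other.

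Outside the set, 87 tested transcripts had a number that differed by 1 to 3 from that of a late-falling one. The IDs with the same number, described above, are not among them. Their median log2 fold change was -0.34 at 24 h against 0 h and -0.33 at 24 h against 8 h. Of the 87, 20 (23.0%) were called lower and 1 higher at 24 h than at 0 h, where 4.29% and 2.77% of all tested transcripts were called in these directions, and 30 (34.5%) were called lower and 7 higher at 24 h than at 8 h, where 12.6% and 15.2% were. What a shared or neighbouring number means is not stated in the files, and reads divided between similar transcripts would place 1 signal in several IDs; their part in these counts was not tested.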

How the data were processed

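Total RNA of shoots was made into strand-keeping libraries, per the labels' protocols. Tools listed in the submitters' processing notes are kallisto 0.45, edgeR 3.40.1 and Trimmomatic, with no role given. The sources used here do not state assembly, annotation or use of strand. The authors deposited estimated counts per transcript as whole numbers (rounding changed 0 cells) and a normalized signal, called normalized CPM here. That signal equals CPM divided by edgeR's TMM factor over all transcripts with a count. Shoot totals ran from 10050233 to 15068602 counts; of the root files only the IDs were used, and 0 columns were left unmatched.

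The transcripts were chosen on normalized CPM. In R 4.3.3 with edgeR 4.0.16, filterByExpr (minimum count 10, by group) kept 40220 shoot transcripts, and 1 quasi-likelihood model with TMM scaling was fitted to the 9 libraries with a mean per time. Tests were two-sided, with Benjamini-Hochberg adjustment over all tested transcripts. The SE is the log2 fold change over the square root of F. Scripts were tested on simulated data. No 2 libraries of a time agreed within sampling noise (chi-square per degree of freedom 3.24 to 12.0).

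Members and lists were chosen with earlier results of these data known. The IDs printed are, for 24 h against each earlier time, the 2 called transcripts with the largest fall; others are described by rank, pairing or their place at a limit, and examples were chosen after their values were seen. Alternatives were scaling, tool, filter, the limits of the rule, a replicate block, the groups fitted and each library left out.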

Additional observations from a re-analysis of the deposited data

How the results depend on the processing

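The number of late-falling transcripts, 112, followed the limits by construction. It was 287 with means of at least 1 and 68 with means of at least 10, 391 with a 24 h mean of at most 2/3 and 34 with at most 1/3 of both earlier means. A narrower and a wider 8 h window gave 85 and 149, overlap between libraries allowed 136, and IDs of 1 number summed 108. With 1 library left out it ran from 109 to 170, sharing 85 to 108 with the 112. The 170 arose without 24 h replicate 3, and 106 of the 112 were among them. The count of the opposite pattern, an alternative set added after seeing the data, ran from 21 to 35.

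Calls at 24 h among the 112 ran from 80 to 99 against 0 h and from 100 to 107 against 8 h with 1 library left out, and from 70 to 112 and from 96 to 112 under the other settings. With the replicate number as a block they were 87 and 107. Shares of all tested transcripts called under the alternatives are not given, here or for 8 h against 0 h below. A move in these counts therefore cannot be told apart from a move in all calls. Over the tested transcripts, same-numbered libraries deviated from their group means with correlations of -0.161 to 0.0649. Such values cannot show whether same-numbered samples were grown or handled together, and the sources used here do not state it. The 3 calls at 8 h against 0 h were 19 with library size alone, 5 without the filter (4 higher, 1 lower), 1 in DESeq2, 0 at adjusted p under 0.01 and 0 to 5 with 1 library left out (1 without 0 h replicate 2, 5 without 0 h replicate 3, 1 without 8 h replicate 1, 0 without 8 h replicate 3). They were 3 under the replicate block; the cause of these moves was not tested. For the fall by which each ID was named, the log2 fold change kept its sign and its adjusted p under 0.05 in every alternative given for it. The highest edgeR adjusted p was 0.0491, for S_Transcript_495201.p1 against 0 h. The fit without the filter on low counts is not given for these IDs. No alternatives are given for S_Transcript_495201.p1 against 8 h or S_Transcript_298997.p1 against 0 h. The IDs were picked as called falls in these libraries, so this is a description only. Values under 1 normalized CPM at 24 h rest on few counts, which limits the precision of the deepest falls.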
